A study of Mus musculus with 6 samples.

Results

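Annexin transcripts were examined in mature mouse neutrophils that had been sorted from bone marrow by the surface proteins CD101 and Ly6G and then kept in culture, 3 libraries with the secreted Wnt antagonist DKK1 and 3 without it, the latter called control. The 8 genes are Anxa1, Anxa2, Anxa3, Anxa4, Anxa5, Anxa6, Anxa7 and Anxa11, taken by gene name from the 56884 genes of the table. All 8 passed the filter on low values, and 16265 genes in all entered the test. Mouse strain, age and sex, the dose of DKK1, the time in culture and the number of animals are not stated in the labels. Nothing says that libraries of a group were separate cultures, so a p-value here speaks to library spread that may be technical. The libraries labelled DKK1 held far fewer transcripts of each gene listed as a mark of mature neutrophils, and hardly any of Ly6g and Cd101, the genes of the sort, which goes against the cell type in their labels. Each change with DKK1 below is a difference between libraries so labelled.

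Annexins are cytosolic proteins that bind phospholipid membranes in the presence of calcium through a conserved core of repeats. Their N-terminal tails differ and set the partners of each member, among them proteins of the S100 family. In neutrophils they take part in granule fusion, in membrane repair and, for annexin A1, in ending inflammation through formyl peptide receptors.

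The annexin genes split in opposite directions. Anxa1, Anxa2 and Anxa11, which made up most annexin transcripts in control, were lower with DKK1, by 159-fold, 58.1-fold and 9.03-fold. Anxa5 and Anxa4 were 25.3-fold and 24.0-fold higher. Anxa6 and Anxa3 fell, Anxa7 rose, and the 3 higher and 5 lower members account for all 8. By limma with Benjamini-Hochberg adjustment, 71.2% of all genes tested were called in either direction, 35.1% higher and 36.1% lower, so a call by itself was common in this comparison.

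The sequence just before the transcription start is shown for the 3 most abundant control annexins, which fell, and for the 2 members with the largest rises, so that the regions can be compared. Each run is the 250 bases upstream of the RefSeq start on GRCm38.p6, 5′ to 3′ along the gene. RefSeq and the GENCODE spans given below place some starts differently, so that the Anxa1 window lies inside the GENCODE gene and those of Anxa2 and Anxa5 end inside it. Capitals mark exact matches to any of 4 short motifs, searched on both strands: the TATA box (TATAAA), the AP-1 site (TGANTCA), the E-box (CACGTG) and the GC box (GGGCGG).
Anxa1 (chr19:20390672-20390921, minus strand): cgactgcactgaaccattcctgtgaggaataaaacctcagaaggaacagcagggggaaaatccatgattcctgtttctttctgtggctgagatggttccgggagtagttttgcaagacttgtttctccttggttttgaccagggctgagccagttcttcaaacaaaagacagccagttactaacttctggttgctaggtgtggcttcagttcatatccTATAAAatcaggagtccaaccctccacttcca
Anxa2 (chr9:69453433-69453682, plus strand): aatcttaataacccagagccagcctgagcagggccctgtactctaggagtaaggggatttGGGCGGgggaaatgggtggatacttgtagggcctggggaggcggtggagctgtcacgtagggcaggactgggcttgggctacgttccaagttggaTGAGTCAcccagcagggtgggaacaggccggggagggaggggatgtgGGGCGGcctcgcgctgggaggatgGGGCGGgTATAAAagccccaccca
Anxa11 (chr14:25841905-25842154, plus strand): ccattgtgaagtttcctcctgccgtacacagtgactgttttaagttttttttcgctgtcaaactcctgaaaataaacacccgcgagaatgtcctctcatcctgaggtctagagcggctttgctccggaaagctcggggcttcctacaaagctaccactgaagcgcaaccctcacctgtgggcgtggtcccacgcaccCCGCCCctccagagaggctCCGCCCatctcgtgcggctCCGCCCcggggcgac
Anxa5 (chr3:36475888-36476137, minus strand): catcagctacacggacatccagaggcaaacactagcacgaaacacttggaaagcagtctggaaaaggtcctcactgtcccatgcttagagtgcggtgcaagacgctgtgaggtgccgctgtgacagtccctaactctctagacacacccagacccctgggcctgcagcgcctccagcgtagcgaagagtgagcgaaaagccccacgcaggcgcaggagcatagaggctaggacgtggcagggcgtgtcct
Anxa4 (chr6:86793585-86793834, minus strand): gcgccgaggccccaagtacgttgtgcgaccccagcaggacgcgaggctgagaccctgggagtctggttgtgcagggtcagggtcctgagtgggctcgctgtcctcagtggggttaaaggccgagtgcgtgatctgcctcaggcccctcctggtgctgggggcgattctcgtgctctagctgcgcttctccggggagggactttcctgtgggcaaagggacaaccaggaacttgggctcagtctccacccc

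A TATA box lay 32 to 27 bases before the RefSeq start of Anxa1 and 17 to 12 bases before that of Anxa2. Both matches lie inside the GENCODE span of their gene. TATAAA was found in 12.4% of 32851 upstream windows of this length. Anxa2 also held 3 GC boxes and an AP-1 match, the latter 95 to 89 bases before its start, present in 6.75% of windows. Anxa11 held no TATAAA but 3 GC boxes in the reverse orientation within 53 bases of its start, and 32.7% of windows held at least 1. The printed windows of Anxa4 and Anxa5 held none of the 4 motifs, nor did the other start listed for Anxa4. Anxa7, which rose, has 2 listed starts, and 1 window held an E-box, found in 6.02% of windows, and 4 GC boxes. The window of the other start overlaps it, and its 1 GC box is 1 of those 4. Upstream GC content was 46% for Anxa1 and 58% to 64.8% for the other printed windows, beside a median of 52.4%. Anxa3 and Anxa6 had no entry. These matches describe letters in a window and not binding. Since the 4 motifs were chosen with these windows in view, the shares of all windows are no test of the members.

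The libraries held 5188116 (DKK1 library 2) to 9851961 reads (control library 3), recovered from the values, and member values rest on 23 to 12725 reads. Intervals that rest on read numbers cover counting error alone, since reads carry no molecular identifiers. All 9 mature neutrophil markers fell with DKK1, from a summed normalized count of 685067 to 710838 in control to 2735 to 3124 with DKK1. S100a8, S100a9 and Csf3r kept 1326 to 1545, 533 to 723 and 602 to 679, whereas Ly6g stood at 4.47 to 6.87 and Cd101 at 1.37 to 5.96 in the DKK1 libraries. Of 10 macrophage markers, 3 rose (Cd68, Adgre1 and Gpnmb), 4 fell (Csf1r, C1qa, C1qb and C1qc) and 3 did not pass. Their median log2 change was 0.04. Their sum was 4744 to 4977 in control and 28567 to 30585 with DKK1, most of it from Gpnmb (13506 to 15544) and Cd68 (9794 to 10323), while C1qa had 0 reads with DKK1 and Mertk stood at no more than 4.93 in each of the 6 libraries. Stromal markers summed to 59.3 to 69.3 in control and 93.2 to 163 with DKK1. Of 4 tested, Col1a1 and Pdgfrb rose, Cxcl12 fell and 1 did not pass. Endothelial markers summed to 262 to 308 and 52.3 to 69.3, most of it from Pecam1 (mean 239, then 37.5). Of these, Kdr and Pecam1 fell and Tek rose. Monocyte markers also summed lower, at 4449 to 4519 in control and 460 to 625 with DKK1, where 3 of 6 fell and 2 rose. B cell sums were 1489 to 1608, then 42.6 to 116, most of it from Ighm (mean 1458, then 49.3), and 6 of 7 markers fell. Dendritic cell sums were 1606 to 1676, then 624 to 709, most of it from Itgax (mean 1642, then 629). Of 4 dendritic cell markers tested, Itgax fell, Zbtb46 and Xcr1 rose and 1 did not pass, for a median log2 change of 1.41. Erythroid sums were 1577 to 1717, then 300.5 to 1474, and 4 of 5 tested fell. T and NK cell sums were 48.3 to 79.3, then 0 to 2.98. Among all genes tested, 35.1% were called higher and 36.1% lower. Basophil and mast cell markers went from 26.8 to 59.1 in control to 118 to 272 with DKK1, and 4 of 5 rose. The part of these differences in the annexin results was not tested. In bulk RNA, fewer cells of a type and less RNA per cell cannot be told apart.

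Anxa1 encodes an anti-inflammatory protein that is induced by glucocorticoids and abundant in neutrophils. It lies on chromosome 19 from 20373428 to 20390944, minus strand (ENSMUSG00000024659.16; positions here and below are from GENCODE M21 on GRCm38, the assembly called mm10). Normalized counts were 9052, 8994 and 8812 in control libraries 1 to 3 and 67.8, 48.1 and 53.1 with DKK1. The groups were far apart, with 35 to 91 reads per DKK1 library against 8051 to 8944 in control. On the log2(normalized count + 1) scale the change was -7.30 (SE 0.12, limma adjusted p = 1.42e-10), the 144th lowest of 16265 genes.

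Anxa2 encodes the annexin that pairs with S100A10, links membranes to actin and gathers plasminogen and its activator at the cell surface. The gene lies on chromosome 9 from 69453620 to 69491795, plus strand (ENSMUSG00000032231.15). It was the most abundant member by normalized count in control, at 12542, 12224.5 and 12537, and ranked 89th of the genes tested. With DKK1 it stood at 233, 177 and 233. The log2 change was -5.86 (SE 0.10, limma adjusted p = 2.13e-10). Anxa1 fell further than Anxa2: the log2 ratio of Anxa1 to Anxa2, which does not depend on scaling between libraries, was -0.47 ± 0.03 in control and -1.93 ± 0.18 with DKK1 (SD, n = 3 each; exact two-sided permutation test p = 0.1, the smallest that 3 against 3 allows).

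Anxa11 encodes a partner of the calcium sensor ALG-2 (Pdcd6) that has been tied to the transport of RNA granules with lysosomes. It spans 25842156 to 25886804 on the plus strand of chromosome 14 (ENSMUSG00000021866.16). Counts were 5321, 5264 and 5562 in control and 669, 519 and 599 with DKK1, again with no overlap (log2 change -3.18, SE 0.09, limma adjusted p = 2.99e-09). The antisense gene Anxa11os overlaps it and the strandedness of the counting is not given, so their reads may not be separable. Anxa11os stood at 28.6 to 38.4 in control and 1.37 to 1.63 with DKK1, small beside Anxa11.

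Anxa6, whose protein has a duplicated core and works in endosomal and cholesterol traffic, lies on chromosome 11 from 54979108 to 55033445, minus strand (ENSMUSG00000018340.14). Control libraries read 321, 290.4 and 333 and DKK1 libraries 53.7, 31.6 and 53.9, a fall of 6.78-fold (log2 change -2.77, SE 0.21; limma adjusted p = 2.43e-06). Anxa3, which is enriched in neutrophils and aggregates their granules, lies on chromosome 5 from 96793339 to 96845966, plus strand (ENSMUSG00000029484.13). Its counts were 275, 337 and 287 in control and 148, 139 and 142 with DKK1, a 2.09-fold fall (log2 change -1.06, SE 0.12, limma adjusted p = 3.19e-05). This was the smallest fall of the 5, and the DKK1 libraries lay closer together than those of control.

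Anxa5 encodes the annexin used as a probe for phosphatidylserine on dying cells. Its gene runs from 36448923 to 36475894 on the minus strand of chromosome 3 (ENSMUSG00000027712.14). It rose from 270.1, 261 and 251 to 6183, 7087 and 6508. Both groups were tight, and Anxa5 moved from rank 4272 among tested genes by control mean to rank 129 by DKK1 mean. The log2 change was 4.65 (SE 0.07, limma adjusted p = 1.15e-10).

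Anxa4, known from secretory epithelia as a protein that aggregates membranes and regulates ion channels, lies on chromosome 6 from 86736840 to 86793584, minus strand (ENSMUSG00000029994.18). It was the lowest member in control, at 31.8, 36.9 and 40.4, and reached 897, 793 and 928 with DKK1 (log2 change 4.55, SE 0.13, limma adjusted p = 3.21e-09). Anxa4 and Anxa5 rose by a similar factor. The log2 ratio of Anxa4 to Anxa5 was -2.85 ± 0.22 in control and -2.92 ± 0.21 with DKK1 (SD, n = 3 each; exact two-sided permutation test p = 0.7), a difference smaller than the spread between libraries, which 3 libraries a group do not show to be 0.

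Anxa7, once called synexin for its fusion of chromaffin granules, lies on chromosome 14 from 20455260 to 20480133, minus strand (ENSMUSG00000021814.18). Counts were 248, 250.2 and 364 in control and 622, 445 and 616 with DKK1. This was the narrowest gap among the rising members: control library 3 stood above the other control libraries and DKK1 library 2 below the other DKK1 libraries, although the groups did not overlap. The rise was 1.95-fold (log2 change 0.97, SE 0.18, limma adjusted p = 0.00100294).

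In each of the 8 members the groups did not overlap, which held for 73.9% of all genes tested. DKK1 library 2, the shallowest, differed most from its group (chi-square over degrees of freedom of 11.4 and 12.3 against the other DKK1 libraries, which gave 2.96 between them). It was the lowest of the 3 DKK1 libraries for 7 members and the highest for Anxa5. Without it the log2 changes of all 8 members kept their direction and their call.

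**Figure D1:**
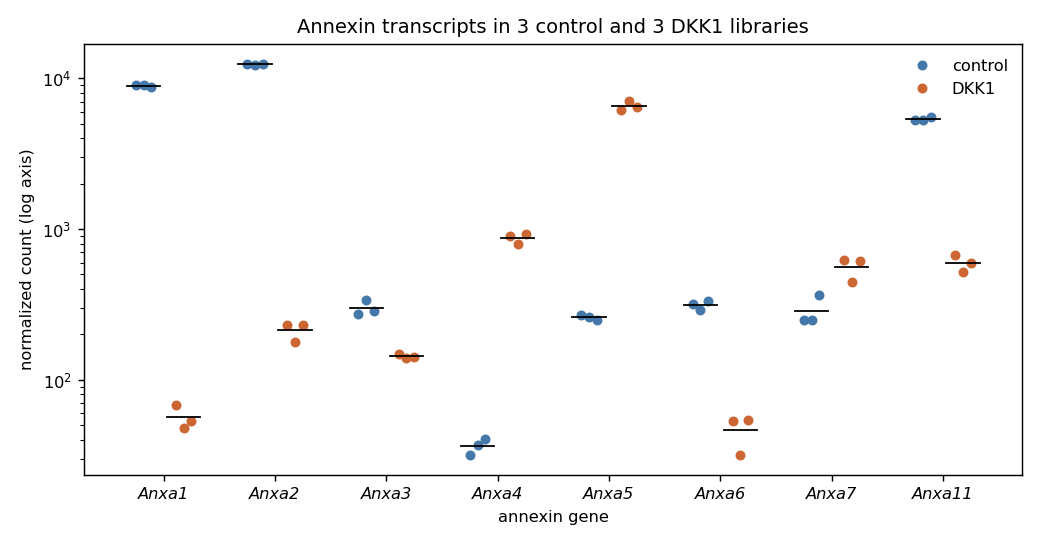
Normalized count (log axis) of each annexin gene, with 1 point per library for 3 control and 3 DKK1 libraries and a black line at each group mean. Control points of Anxa1, Anxa2 and Anxa11 lie at 5264 or higher and their DKK1 points at 669 or lower, Anxa5 has the opposite layout, and no gene has overlapping groups.

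**Figure D2:**
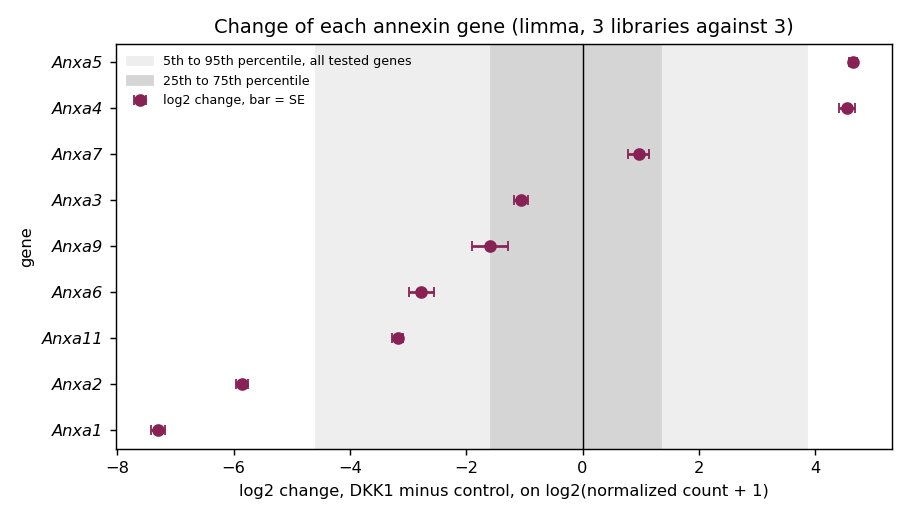
Log2 change (DKK1 minus control, on log2(normalized count + 1)) of the 8 members and Anxa9, with bars for the SE from limma and grey bands for the spread of all tested genes. Anxa1 and Anxa2 lie below the 5th percentile of all genes (-4.59), Anxa4 and Anxa5 above the 95th (3.87), and Anxa3 and Anxa7 lie between the 25th and 75th percentiles (-1.58 and 1.35).

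The median log2 change of the 8 members was -1.92 and their mean -1.25, beside a median of -0.03 for all genes tested. When libraries were scaled to equal total reads, the median of all genes moved to 0.48 and that of the annexins to -1.39. Each member kept its direction and its call under that scaling, under quantile normalization and under median-of-ratios scaling. The split of all calls was 49.3% higher as deposited and 60.8% with equal totals.

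Levels were compared between members after division by the length of the longest annotated transcript. In control, Anxa2 and Anxa1 stood at 5454 ± 79.8 and 5348 ± 74.9 normalized counts per kb (SD, n = 3 each), and their libraries overlapped in share. Anxa11 followed at 1969 ± 57.8, then Anxa3 at 188 ± 20.9, Anxa5 at 151 ± 5.47, Anxa6 at 126 ± 8.80, Anxa7 at 98.9 ± 22.7 and Anxa4 at 13.9 ± 1.64. The middle of this order is close, and Anxa6 and Anxa7 differed by about their spread. Within each control library Anxa6 lay above Anxa7 (129, 117 and 134 against 85.5, 86.2 and 125). With DKK1 the order began with Anxa5 at 3809 ± 264, followed by Anxa4 at 333 ± 27.0, Anxa11 at 218 ± 27.5 and Anxa7 at 193 ± 34.6. The last pair differed by less than their spread, though Anxa11 lay above Anxa7 in each DKK1 library (245, 190 and 219 against 214, 153 and 212). Anxa2 at 93.9 ± 14.0 and Anxa3 at 89.7 ± 3.05 also lay within their spread, above Anxa1 at 33.6 ± 6.13 and Anxa6 at 18.6 ± 5.15. The orders in control and with DKK1 rest on the longest transcript as length. For Anxa3 that is 1595 bases against 3643 for the union of exons, and for Anxa5 1731 against 1777. Close places in these orders thus depend on the length used.

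The make-up of the annexin pool was thus exchanged. Shares of the summed level per kb do not depend on scaling between libraries. Anxa1 went from 40.1% ± 0.68 to 0.71% ± 0.15, Anxa2 from 40.9% ± 0.31 to 1.97% ± 0.35, and Anxa11 from 14.8% ± 0.38 to 4.57% ± 0.72 (SD, n = 3 each). Anxa5 went from 1.13% ± 0.04 to 79.5% ± 2.94 and Anxa4 from 0.10% ± 0.01 to 6.96% ± 0.74. Each of these shifts had an exact two-sided permutation p = 0.1, the smallest possible here. Anxa3 held 1.41% ± 0.17 and 1.88% ± 0.13, a shift that turned negative (-0.09 percentage points) when levels were divided by the union of exons. Anxa7 went from 0.74% to 4.05%, and its gain was 1.62 percentage points with the union of exons. The gain of Anxa4 was 6.86 percentage points, or 4.32 with the union of exons.

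**Figure D3:**
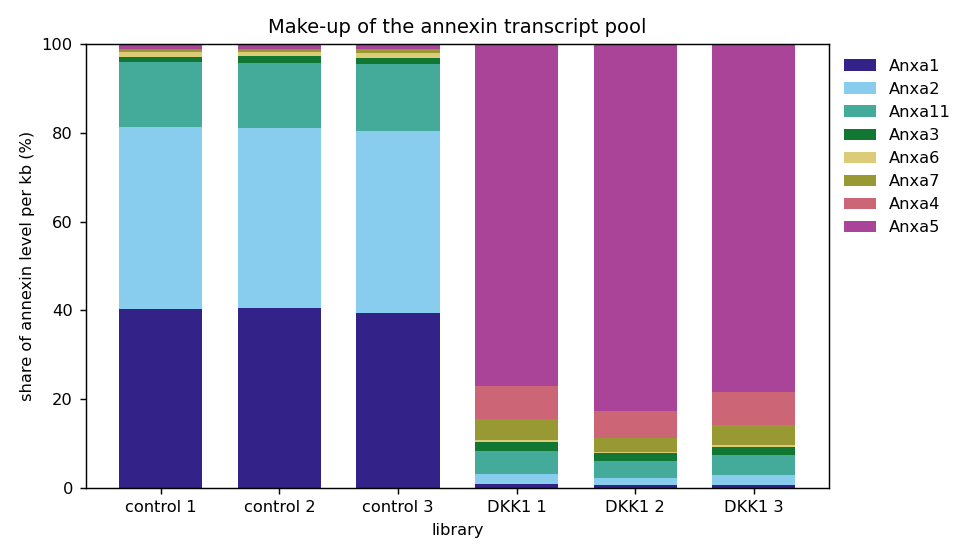
Share (percent) of each annexin gene in the summed annexin level per kb of transcript, as stacked bars for each of the 6 libraries. Anxa1, Anxa2 and Anxa11 fill 95.7% of the control bars on average, and Anxa5 fills 77.1% to 82.8% of the DKK1 bars.

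The pool as a whole was smaller with DKK1. The summed level was 13349 ± 94.6 normalized counts per kb in control and 4788 ± 158 with DKK1 (SD, n = 3 each), a ratio of 2.79 (exact two-sided permutation test p = 0.1). The ratio was 1.93 with equal total reads and 1.90 with the union of exons as length. As a share of all reads, the 8 genes took 0.287% ± 0.003 in control and 0.135% ± 0.005 with DKK1.

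Of the other annexin genes in the table, Anxa9, an annexin that lacks the usual calcium sites, was the one that could be tested. It stood at 24.2, 32.4 and 28.6 in control and 8.20, 8.24 and 9.80 with DKK1, a fall of 3.24-fold at low counts (limma adjusted p = 0.00140395). The genes Mindy1 and 6330562C20Rik overlap Anxa9, and their levels were not examined. Reads of Anxa9 and of these genes may not be separable. Anxa10 had 4 reads in control library 1 and 0 in the other 5 libraries. Anxa8 and Anxa13 had 0 reads in all 6, which allows a group mean of up to 1.06 in control and 0.911 with DKK1 (3 reads over a group).

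The genes most like Anxa1 and Anxa5 were found by Euclidean distance in log2(normalized count + 1) over the 6 libraries, among 11927 named protein-coding genes. For Anxa1 they were Evi2b (distance 0.55), Ogfrl1 (0.65) and S100a6 (0.87). S100a6 fell from 12630, 12343 and 12120.1 to 55.2, 46.7 and 47.4. For Anxa5 they were Gclm (0.67), the modifier subunit of glutamate-cysteine ligase, Clcn7 (0.73), a lysosomal chloride transporter, and Ppia (0.74), cyclophilin A. Gclm rose from 340.4, 284 and 274 to 8407, 6502 and 8058.

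Partners of the annexins changed in both directions. Of 12 tested, 7 were lower and 4 higher, beside 36.1% and 35.1% of all genes, and 1 (Ahnak) missed the threshold. With equal totals 5 were lower and 5 higher, Ahnak having joined the latter and S100a4 and Pdcd6 having lost their calls. The list had a median log2 change of -1.25, or -0.75 with equal totals. The falls included the small calcium-binding proteins S100a6 (249-fold; limma adjusted p = 1.98e-11) and S100a11 (156-fold, from 17445 ± 329 to 112 ± 16.2, SD, n = 3 each; limma adjusted p = 7.38e-11). S100a11 is a partner of annexins A1 and A2, and its fall was close in size to that of Anxa1. Sorcin (Sri), which binds annexin A7, fell from 1102 ± 32.4 to 74.2 ± 5.68, while Anxa7 itself rose. Plaur, the receptor of urokinase, fell 7.52-fold (limma adjusted p = 5.40e-09). S100a10, the partner of Anxa2, was low in all libraries, at 15.4, 19.0 and 9.85 in control and 3.73, 0 and 4.90 with DKK1 (limma adjusted p = 0.0138, or 0.0772 with a pseudocount of 0.1). The 4 that rose were Trpm7, a channel kinase that phosphorylates annexin A1, with Pla2g4a, Plgrkt and the urokinase gene Plau, which went from 20.9, 12.3 and 8.87 to 854, 1489 and 974. S100a10, Trpm7 and Plau were named after their values were seen.

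Receptors for annexin A1 fell along with it. Fpr1 averaged 3329 ± 64.8 in control and 507 ± 54.9 with DKK1 (SD, n = 3 each; limma adjusted p = 5.72e-09), a log2 change of -2.72 with an SE of 0.09. Fpr2 averaged 2657 ± 45.8 and 830.5 ± 75.8 (SD, n = 3 each; limma adjusted p = 6.24e-08), a log2 change of -1.68 with an SE of 0.08. Of the 7 tested receptors and proteases, 5 fell (Fpr1, Fpr2, Elane, Prtn3 and Adam10), Adam17 rose and Ctsg missed the threshold. Among all genes 36.1% were lower and 35.1% higher. Adam10 turned to an uncalled 0.12 with equal totals and 0.01 with quantile normalization. The list's median log2 change was -1.68. It was -1.05 to -1.04 when any 1 control library was left out, since Elane then has too few libraries to enter the test. Adam17, a sheddase, rose 5.09-fold, from 839, 814 and 776 to 3911, 4552 and 3895. Elane, neutrophil elastase, had few reads, at 19.8, 10.05 and 31.5 in control and 0.745, 0 and 0 with DKK1. Fpr3 had 0 reads throughout.

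Genes of membrane repair and of the ESCRT machinery, which removes damaged membrane, were called in both directions. Of 16 tested, 7 rose and 6 fell, beside 35.1% higher and 36.1% lower of all genes, and 3 missed the threshold. The list's median log2 change was 0.08. With equal totals 9 were higher and 4 lower and the median was 0.61, close to the 0.48 of all genes. Chmp4b, called lower, turned to 0.08 under that scaling and 0.16 with quantile normalization, with no call in either. Capn1, a calpain that cuts proteins at wounded membranes, fell from 3504, 3483 and 3708 to 56.6, 42.6 and 71.04. Myoferlin (Myof) rose from 0, 3.35 and 1.97 to 235.5, 299 and 336, while dysferlin (Dysf) had at most 1 read in a library. Chmp3 and Tsg101, of the ESCRT machinery, rose 1.86-fold and 2.90-fold (limma adjusted p = 1.17e-06 and 4.32e-06).

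Phosphatidylserine, the lipid that annexin A5 binds, is moved by flippases and scramblases. Of 20 tested genes of its exposure and uptake, 11 fell, 4 rose (Ano6, Gas6, Havcr2 and Elmo1) and 5 missed the threshold. Among all genes 36.1% were lower and 35.1% higher. The list's median log2 change was -0.59. That median was -0.23 with equal totals and -1.12 without control library 1, where 19 of the genes entered the test. The smallest of the falls, that of the flippase subunit gene Tmem30a (-0.18), turned to a called rise of 0.36 with equal totals and 0.45 with quantile normalization, and kept its call in 9 of 17 alternatives. Gas6 had 0, 3.35 and 0 in control and 7.45, 4.12 and 3.27 with DKK1, with overlapping groups, and its call held in 7 of 16 alternatives, edgeR and DESeq2 not among them. The flippase genes Atp11b and Atp8a1 fell 14.8-fold and 3.23-fold (limma adjusted p = 2.62e-10 and 1.46e-07). Cd300lf, a phosphatidylserine receptor, fell from 15423 ± 91.2 to 519 ± 90.7 (SD, n = 3 each), and Dock2, a guanine exchange factor for Rac, fell 4.51-fold. Ano6, a calcium-activated scramblase, rose 2.15-fold from 364 ± 20.1 to 782 ± 36.4. Ano6, Tmem30a and Gas6 were singled out after their values were seen.

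Anxa1 is induced by glucocorticoids in many cells. Of a list of 11 other genes so induced and the receptor gene Nr3c1, 9 fell, Nr3c1 among them. A further 2 rose (Klf9 and Mt2) and 1 missed the threshold. Among all genes 36.1% were lower and 35.1% higher. The list's median log2 change was -2.95, or -2.42 with equal totals. Tsc22d3, which encodes GILZ, went from 6903, 6941 and 6837 to 37.3, 71.4 and 43.3, with no overlap. Fkbp5, a chaperone of the receptor, fell 22.5-fold and Zfp36, an mRNA decay factor, 24.6-fold (limma adjusted p = 4.87e-09 and 8.29e-10). The receptor gene Nr3c1 fell 4.76-fold, from 4215 ± 176 to 885.5 ± 39.5 (SD, n = 3 each). Many of these genes respond to other signals as well.

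**Figure D4:**
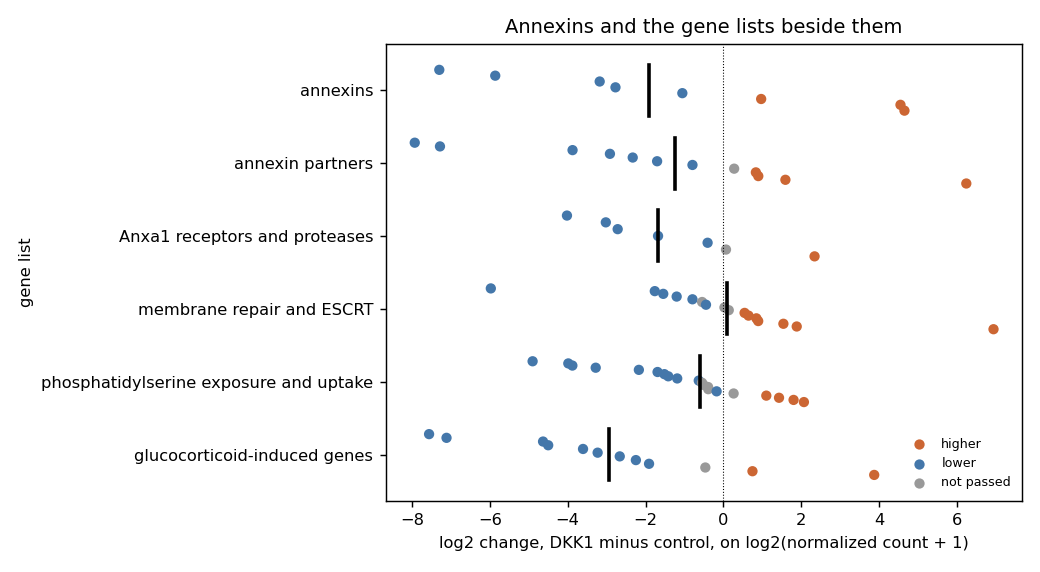
Log2 change (DKK1 minus control, on log2(normalized count + 1)) of every tested gene of the annexins and of 5 lists beside them, with 1 point per gene, coloured by its call, and a black bar at each list's median. The annexins run from -7.30 to 4.65, with S100a6 (-7.93) farther out on the low side and Myof (6.94) on the high side, and the glucocorticoid list, which includes Nr3c1, has the lowest median, -2.95.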

How the data were processed

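RNA was sequenced from 6 libraries, grouped by sample title. The authors deposited normalized counts, a signal per gene that is never negative; the build is mm10 per the submitters' processing notes, and no source used here states the aligner, the counter or the scaling. A further 3 columns match no sample and were not used. All values (100% within a tolerance of 0.001) were whole multiples of 1 read's worth, so reads were recovered for checks. Testing used limma 3.58.1 (R 4.3.3; trend, robust) on log2(normalized count + 1), for genes with a value of at least 1 in at least 3 of 6 libraries, adjusted by Benjamini-Hochberg at a threshold of 0.05. Changes of low genes are understated on this scale. Each fold is a ratio of group means. Lengths came from GENCODE M21, matched without ID versions. Upstream windows came from RefSeq, and 6 of the 8 members had an entry. The 4 motifs were chosen with these windows in view.

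Members and gene lists were chosen with earlier results of these data known. Named were all annexins, up to 4 genes of smallest adjusted p per list, and the 3 genes nearest to the member with the largest fall and to that with the largest rise. Alternatives were pseudocounts of 0.1 and 10, a filter of 10 in 3 libraries or none, a replicate block, 3 other scalings, plain empirical Bayes, edgeR 4.0.16 (quasi-likelihood) and DESeq2 1.42.0 on recovered reads, and leaving out each library. Each library counted as 1 replicate. Pairs of libraries within a group differed beyond counting noise, which does not show that they were separate cultures. On simulated DKK1 minus control data with 15828 genes entering, limma found, among genes with a mean of at least 30, 36.8% of 38 with a log2 change of 0.5, 88.6% of 44 with 1 and 100% of 38 with 2. Of its calls 6.36% were false. Only 65, 65 and 64 genes were changed at these 3 sizes, with no shift in scaling, whereas 71.2% of genes were called in the data. These rates therefore do not carry over to the calls made here.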

Additional observations from a re-analysis of the deposited data

How the results depend on the processing

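Each of the 8 annexin genes kept its direction and its call under all 17 alternatives of the fit, edgeR and DESeq2 on recovered reads and the loss of any 1 library included. Scaling to equal total reads moved the median log2 change of the annexins from -1.92 to -1.39. The summed level stayed lower with DKK1 in each setting run. The share of Anxa3 in the annexin level reversed, to -0.0932 percentage points, with the union of exons as length; the length is the only term that differs. Under quantile normalization and equal totals respectively, Adam10 turned to 0.0149 and 0.12, Chmp4b to 0.16 and 0.0826 and Tmem30a to 0.45 and 0.36. Quantile normalization moved the median of all genes to 0.12. Medians of the lists ranged over the 17 alternatives from -1.37 to -0.75 (partners), -2.20 to -1.04 (receptors and proteases), 0.02 to 0.61 (membrane repair), -1.42 to -0.23 (phosphatidylserine) and -3.40 to -2.28 (glucocorticoid). Of the glucocorticoid list, 2 were higher, and 1 when any 1 DKK1 library was left out, since Mt2 then has too few libraries to enter the test. No pairing by replicate number was seen: deviations of same-numbered libraries from their group means correlated at -0.01, 0.01 and 0.02 over tested genes. Libraries of unlike number correlated at -0.02 to 0.01. With 3 libraries a group, such correlations cannot exclude a pairing. With the replicate block 3 annexins were still higher and 5 lower (limma adjusted p at most 0.000257), and 5630 genes in all were higher and 5817 lower. For the summed level, sign flips over the 3 pairs gave an exact p = 0.25, the smallest possible. Anxa8, Anxa10 and Anxa13 had too few reads to be tested, and the part of depth in that was not tested.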
